A study of Mus musculus with 12 samples.

Results

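The genes of the mitochondrial genome were described in cultured SIM-A9 cells. SIM-A9 is an established line of C57BL/6 mouse microglia, the immune cells of the brain. Of the 37 genes that a GRCm38 annotation (GENCODE M21) places on the mitochondrial chromosome, 16 have a row in the count tables, among 30994 genes in all. They are both ribosomal RNA genes and the 14 transfer RNA genes of the plus strand. The 13 protein-coding genes and the 8 transfer RNA genes of the minus strand are not analysed here, so strands could not be compared. The cells were studied by SLAM-seq, in which 4-thiouridine (100 µM for 90 min) enters RNA during synthesis and iodoacetamide makes the labelled bases readable as changed. Each library has a count of all its reads (total) and of its labelled reads (nascent). Every culture first received 10 µM polymyxin B, an antibiotic that binds endotoxin, for 1 h. The 4 groups, with 3 libraries each, were C13 with TDP-43 aggregates, C13 with sham aggregates, DMSO with TDP-43 aggregates and DMSO with sham aggregates. C13, a compound that inhibits the kinase MOK according to the title of the series, was given at 10 µM, and DMSO is its solvent. The aggregates or the sham followed after 1 h, at 5 µg/mL, and were present for 4 h in all. The labels call the libraries biological replicates without saying whether they came from separate days or passages of this single line, so p-values measure the spread between these samples.

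Mammalian mitochondrial DNA is read as long transcripts that span many genes. Transfer RNA genes lie between the ribosomal and the protein-coding genes, and their excision frees the RNAs on either side. mt-Rnr1 and mt-Rnr2 give the RNA of the small and the large subunit of the mitochondrial ribosome, and each transfer RNA carries 1 kind of amino acid for translation within the organelle. The ribosomal RNAs are known as the most abundant stable products of the genome.

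Depth was 17436397 to 41779882 total reads per library, and 552042 to 2722812 reads were nascent. The nascent share of a library ran between 1.88% in C13 with sham replicate 3 and 7.11% in DMSO with sham replicate 2. Earlier work on these data had set apart from their groups C13 with sham replicate 3 and DMSO with TDP-43 replicate 3. The main results that these libraries could move are also given without them. Of 14 markers of microglia and macrophages, 12 averaged over 1 CPM (counts scaled to the library size), with a summed level of 1365 to 2360 CPM per library. Tmem119 and C1qa averaged 0.51 and 0.44 CPM. None of 5 neuron and none of 4 astrocyte markers averaged over 1 CPM, and Snap25, Gfap and Aldh1l1 were at 0 reads in all libraries. Of 4 oligodendrocyte markers 1 did, Mbp, at 21.7 CPM, with the 4 summing to 4.66 to 45.5 CPM per library, and Mog and Mag were at 0 reads.

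The sequences of 5 transfer RNA genes and the last 60 bases of both ribosomal RNA genes are printed because their nascent shares span the range found among the members, while their T content does not follow that range. They were read from the GENCODE M21 transcripts (GRCm38, plus strand) and run 5′ to 3′ in DNA letters. Capitals mark T, the base that is U in RNA and that 4-thiouridine can replace. The genes lie at chrM:11546-11612 (mt-Th), chrM:3706-3774 (mt-Ti), chrM:4950-5016 (mt-Tw), chrM:6942-7011 (mt-Td) and chrM:7700-7764 (mt-Tk), and the ends at chrM:965-1024 (mt-Rnr1) and chrM:2616-2675 (mt-Rnr2).
mt-Th: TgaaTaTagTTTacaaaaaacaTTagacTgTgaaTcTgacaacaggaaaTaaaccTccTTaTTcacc
mt-Ti: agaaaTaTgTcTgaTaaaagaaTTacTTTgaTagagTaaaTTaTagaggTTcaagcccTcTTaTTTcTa
mt-Tw: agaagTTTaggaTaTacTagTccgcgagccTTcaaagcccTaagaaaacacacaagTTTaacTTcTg
mt-Td: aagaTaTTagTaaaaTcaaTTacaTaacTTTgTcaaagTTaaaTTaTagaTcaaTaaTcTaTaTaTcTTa
mt-Tk: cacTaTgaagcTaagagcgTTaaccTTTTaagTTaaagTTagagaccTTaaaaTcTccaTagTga
mt-Rnr1 end: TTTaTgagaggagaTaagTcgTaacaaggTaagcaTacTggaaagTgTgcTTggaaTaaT
mt-Rnr2 end: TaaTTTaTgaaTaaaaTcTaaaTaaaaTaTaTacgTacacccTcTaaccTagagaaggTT
T made up 26 of the 70 bases of mt-Td, 24 of 69 in mt-Ti, 19 of 65 in mt-Tk, 18 of 67 in mt-Th and 16 of 67 in mt-Tw. Across the 14 transfer RNA genes the share of T and the pooled nascent share had a Pearson r of -0.228 and a Spearman rho of -0.152, and across all 16 genes -0.0375 and 0.0147. These are descriptions across genes that share the same libraries. T was counted over the whole annotated gene, and which bases the counted reads cover is not known, so the T content of the reads themselves was not measured.

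Reads counted to the transfer RNA genes held a larger nascent share than those of nearly all other genes, and the ribosomal RNA genes lay among those other genes. Whether the reads came from excised transfer RNAs or from longer transcripts that span these genes was not tested. The amino acids below name the genes only. Pooled over the libraries, 73.5% of the reads of mt-Th (histidine), 73.4% of mt-Ts2 (serine), 68.3% of mt-Ti (isoleucine), 66.1% of mt-Tl2 (leucine), 65.9% of mt-Tm (methionine) and 53.9% of mt-Tw (tryptophan) were nascent. Thus 6 of the 16 members were over 50% nascent, as were 3 of 10799 nuclear genes with a mean of at least 20 total reads (0.0278%). A further group was intermediate, with mt-Tv (valine) at 45.4%, mt-Tl1 (leucine) at 42.2%, mt-Tt (threonine) at 35.5% and mt-Tr (arginine) at 25.8%. The lowest transfer RNA genes were mt-Tg (glycine) at 23.99%, mt-Td (aspartate) at 18.6%, mt-Tk (lysine) at 12.7% and mt-Tf (phenylalanine) at 12.3%. All 14 exceeded the nuclear median of 2.56%. mt-Rnr2 was 3.32% nascent and mt-Rnr1 2.72%, and 33.7% and 45.8% of those nuclear genes had higher shares than these 2. The 95% Clopper-Pearson interval was 68.0% to 68.5% for mt-Ti, on 127026 reads, and 8.17% to 17.5% for mt-Tf, on 212 reads. These intervals cover counting error only, since reads without molecular identifiers are not independent molecules.

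**Figure D1:**
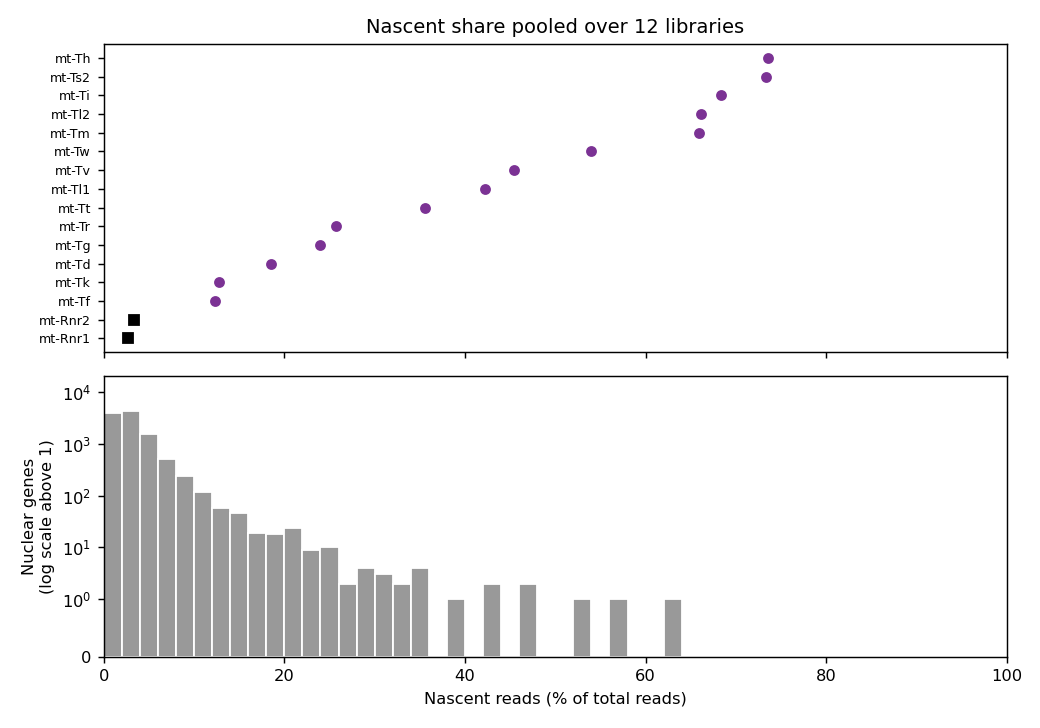
Nascent reads as a percentage of total reads, pooled over 12 libraries, for the 16 mitochondrial genes (upper panel, circles for transfer RNA and squares for ribosomal RNA genes) and, in bins of 2 percentage points, for 10799 nuclear genes (lower panel, y axis on a log scale above 1). The transfer RNA genes lie between 12.3% and 73.5%, and the 2 ribosomal RNA genes lie where most nuclear genes do.

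mt-Ti was between 57.5% and 77.8% nascent in the 12 libraries, with a median of 65.4%. mt-Td was between 15.9% and 22.4%, with a median of 16.7%. The ranges of these abundant genes did not meet, so that mt-Ti was above mt-Td in every library. mt-Rnr1 was between 1.61% and 5.04% nascent, with a median of 2.99%. mt-Rnr2 was between 2.50% and 4.77%, with a median of 3.08%. Each transfer RNA gene except mt-Tf was above the nascent share of its library in 12 of 12 libraries, mt-Rnr2 in 9 and mt-Rnr1 in 6. mt-Tf was above it in 6 libraries and had 0 nascent reads in the other 6, with 3 to 47 total reads per library. The spread was wide for the genes with few reads, such as mt-Ts2, which was between 24.5% and 95.1% nascent on 53 to 532 reads per library.

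**Figure D2:**
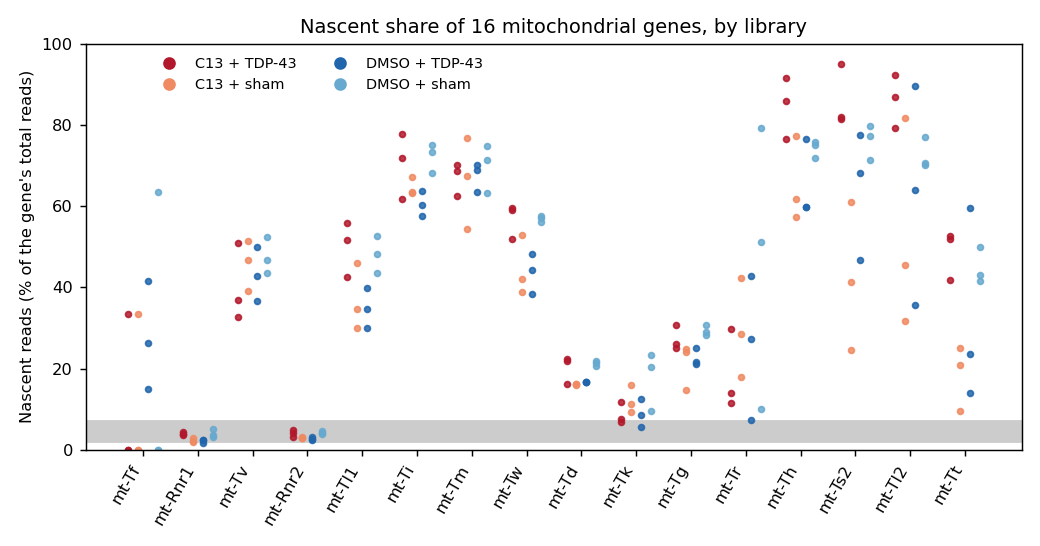
Nascent reads as a percentage of a gene's total reads for the 16 mitochondrial genes in gene order, with 1 point per library coloured by group. The grey band is the range of the library nascent shares, 1.88% to 7.11%. Points of mt-Rnr2 lie within the band, those of mt-Rnr1 within it or just below (1.61% and up), and those of mt-Ti, mt-Tm and mt-Th lie far above it.

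Nascent counts were compared with the other reads of the same libraries in 1 edgeR fit over 9586 genes. In edgeR's quasi-likelihood test with Benjamini-Hochberg adjustment, 7.93% of these genes were called higher in nascent reads and 27.3% lower. Of 15 members tested, 13 were called higher and 0 lower. The 13 were all transfer RNA genes tested, mt-Tf having too few reads. Ranked by log2 fold change among all genes tested, 5 of them took places 1 to 5. mt-Th stood at 6.70 (SE 0.38, adjusted p = 2.12e-12), mt-Tl2 at 6.50 (SE 0.54), mt-Ts2 at 6.45 (SE 0.47), mt-Tm at 6.29 (SE 0.27) and mt-Ti at 6.25 (SE 0.22). mt-Tw was 9th, at 5.24 (SE 0.23), and mt-Td was 59th, at 3.06 (SE 0.18). mt-Rnr2 stood at 0.36 (SE 0.14, edgeR adjusted p = 0.0547) and mt-Rnr1 at 0.16 (SE 0.15, edgeR adjusted p = 0.396). mt-Rnr2 was called when replicate 1 of C13 with sham, replicate 2 of DMSO with sham or replicate 2 of DMSO with TDP-43 was left out, and its edgeR adjusted p was between 0.0163 and 0.123 when each library was left out in turn. It was also called with DESeq2 size factors (adjusted p = 0.037, 8.25% of genes called higher) and with counts divided by common factors (adjusted p = 0.0497, 8.29%), which makes 14 members. The DESeq2 test called 13.

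By class, the nascent share of the transfer RNA genes as a sum was 29.6%, 44.9% and 41.9% in C13 with TDP-43, and 27.9%, 29.2% and 28.1% in C13 with sham. It was 29.1%, 30.8% and 28.2% in DMSO with TDP-43, and 37.4%, 35.8% and 42.9% in DMSO with sham. It exceeded the library's own nascent share 5.04-fold in DMSO with sham replicate 2, the library with the most nascent reads, and up to 17.2-fold in C13 with TDP-43 replicate 3. On the log2 scale the excess averaged 3.47 over the 12 libraries (two-sided exact sign-flip permutation test, p = 4.88e-04, the smallest it can give, adjusted p = 0.00513 over 21 tests of shares). For the ribosomal RNA genes it averaged 0.089 (exact sign-flip permutation p = 0.457). The difference between the classes was 3.38, in the same direction in 12 of 12 libraries (exact sign-flip permutation p = 4.88e-04, adjusted p = 0.00513). Set against the median nuclear gene of each library in place of the library's share, the ribosomal RNA excess was 0.99 and passed the test (exact sign-flip permutation test, adjusted p = 0.0137).

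The reads of each class came from few genes. By mean total reads, mt-Rnr2 ranked 2nd among all genes, at 392870 reads per library, and mt-Rnr1 6th, at 215859. In nascent reads mt-Rnr2 ranked 3rd, mt-Ti 6th, mt-Rnr1 9th and mt-Td 16th. The 4 transfer RNA genes with the highest mean total counts were mt-Td with 23009, mt-Tg with 10917, mt-Ti with 10586 and mt-Tl1 with 3765 reads per library. mt-Td, mt-Tg and mt-Ti together took 79.3% to 87.0% of the total and 73.1% to 82.2% of the nascent reads of the class. The other 10 had between 17.7 (mt-Tf) and 2107 (mt-Tw) reads per library. Counts were not corrected for gene length. mt-Ti shares 2 bases with mt-Nd1 and 3 with mt-Tq, which lies on the other strand. mt-Tw shares 2 bases with mt-Nd2, and mt-Ts2 shares 1 base with mt-Tl2. Other members lie next to their neighbours, such as mt-Tl1 at 0 bases from mt-Rnr2, mt-Tg at 0 from mt-Co3 and mt-Td at 1 from mt-Co2. The strand setting of the counting is not given in the sources used here. mt-Tl1 had a partial match in the nuclear gene Cep295 (93.5% identity over 62 bases), which averaged 8.67 reads. No other member matched a nuclear transcript at 90% identity over at least 50 bases.

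**Figure D3:**
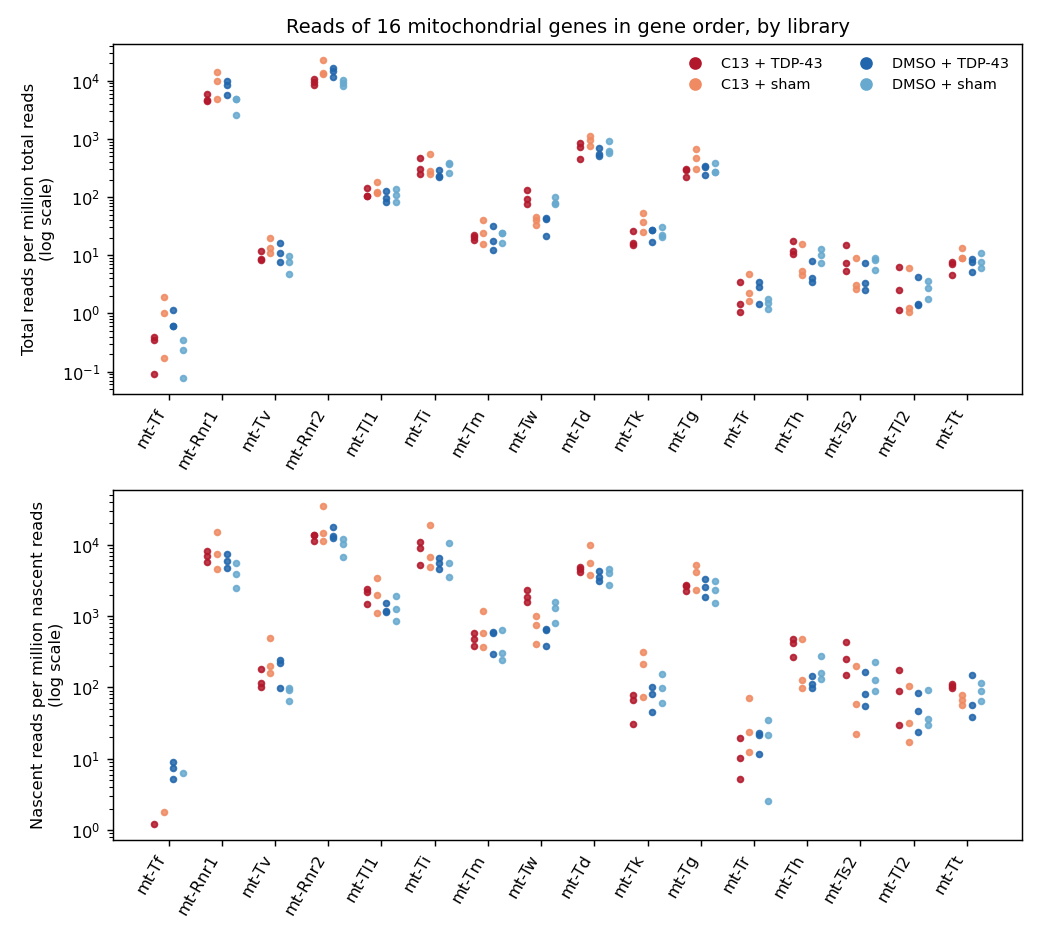
Total reads in CPM of all total reads (upper panel) and nascent reads in CPM of all nascent reads (lower panel) for the 16 mitochondrial genes in gene order, on log scales and without TMM scaling, with 1 point per library coloured by group. Values of 0 (mt-Tf nascent reads in 6 libraries) cannot be shown on a log scale. mt-Ti and mt-Td lie closer to the ribosomal RNA genes in nascent than in total reads.

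The groups were then compared, to ask whether C13 or TDP-43 aggregates went with a change in mitochondrial RNA. The ribosomal RNA genes took 1.51%, 1.54% and 1.29% of total reads in the libraries with C13 and TDP-43, and 1.80%, 2.37% and 3.70% in those with C13 and sham. With DMSO they took 1.71%, 2.52% and 2.47% with TDP-43, and 1.17%, 1.49% and 1.31% with sham. The share was thus lower with TDP-43 than with sham in every library given C13, and higher in every library given DMSO. The difference between TDP-43 and sham was -1.18 percentage points with C13 and 0.912 with DMSO, a difference of -2.09 between them (exact permutation of the aggregate labels for each drug, two-sided, p = 0.005, the smallest it can give, adjusted p = 0.035 over 21 tests). That test takes as its null that aggregates had no effect with either drug. Without C13 with sham replicate 3 and DMSO with TDP-43 replicate 3 the difference was -1.43 (exact permutation p = 0.01, the smallest that 100 arrangements can give, adjusted p = 0.07), so with the other tests as they were the call could not be kept there at any size of the difference. It stayed below 0 without each library in turn, and the call was lost without any 1 of the 3 libraries of C13 with TDP-43 or of DMSO with sham (exact permutation test, adjusted p = 0.14 and 0.07). By replicate number the exact permutation p was 0.03125, the smallest it can give, and the adjusted p was 0.219, so this test could not keep the call either. Each pair of groups was also compared alone, where 3 libraries against 3 cannot give an exact permutation p below 0.1, and all 4 pairs reached that p. Averaged over the other treatment, C13 differed from DMSO by 0.258 percentage points (exact permutation p = 0.61) and TDP-43 from sham by -0.131 (exact permutation p = 0.84). A share of reads does not tell the amount of RNA per cell.

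In nascent reads the ribosomal RNA genes took 1.69%, 2.17% and 2.05% with C13 and TDP-43, and 1.59%, 2.22% and 4.99% with C13 and sham. With DMSO they took 1.72%, 1.91% and 2.49% with TDP-43, and 1.40%, 0.912% and 1.75% with sham. The groups overlapped with each drug, and the difference of differences was -1.65 percentage points (exact permutation p = 0.1, adjusted p = 0.42). Without the 2 libraries that stand apart it was -0.405 (exact permutation test, adjusted p = 0.717). The transfer RNA genes took 0.158% ± 0.0317 of total reads with C13 and TDP-43, 0.208% ± 0.0612 with C13 and sham, 0.136% ± 0.0229 with DMSO and TDP-43 and 0.163% ± 0.034 with DMSO and sham (SD, n = 3 each). Their difference of differences was -0.022 percentage points (exact permutation p = 0.69), and in nascent reads -0.226 (exact permutation p = 0.855), against 0.00713 and 0.696 without the 2 libraries. C13 with sham replicate 3 had the highest share of both classes in both tables.

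**Figure D4:**
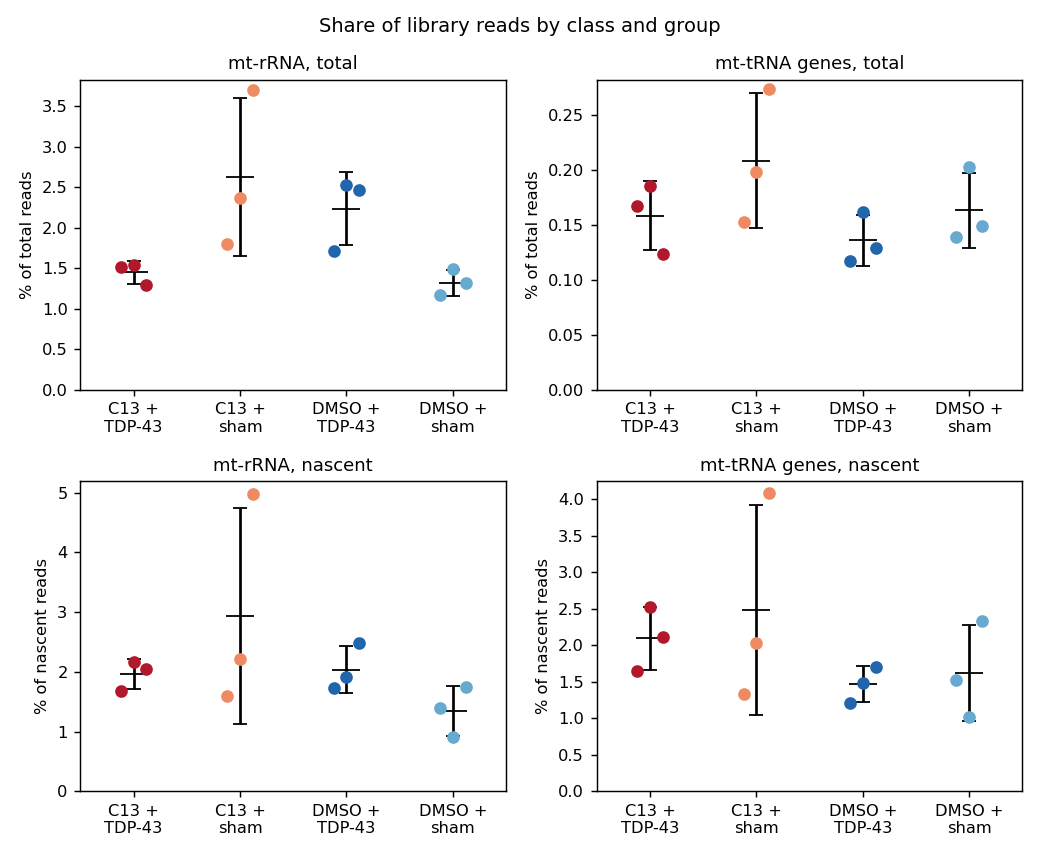
Share of total reads (upper panels) and of nascent reads (lower panels) held by the 2 ribosomal RNA genes (left) and the 14 transfer RNA genes (right), with 1 point per library, the group mean as a line and the SD as bars (n = 3). In the upper left panel the groups with C13 and TDP-43 and with DMSO and sham reach 1.54% at most, and the other groups start at 1.71%.

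As a raw percentage, the nascent part of the ribosomal RNA reads was ordered by group in the opposite direction from their share of total reads. This was noticed in the values and is given per library, before any correction for the nascent share of the library. mt-Rnr1 was 3.93%, 4.41% and 3.68% nascent with C13 and TDP-43, and 2.92%, 2.13% and 1.99% with C13 and sham. With DMSO it was 2.35%, 2.30% and 1.61% nascent with TDP-43, and 5.04%, 3.73% and 3.06% with sham. mt-Rnr2 averaged 3.95% ± 0.838 with C13 and TDP-43, 2.91% ± 0.141 with C13 and sham, 2.75% ± 0.292 with DMSO and TDP-43 and 4.16% ± 0.442 with DMSO and sham (SD, n = 3 each). In both genes all 6 libraries of C13 with TDP-43 and of DMSO with sham were above all 6 others, though in mt-Rnr2 by as little as 3.09% against 3.07%. Of 7187 genes with at least 100 total reads in every library, 0.445% had that pattern, and of 11 members among them these 2 did. The opposite pattern was found in 0.0139% of genes and in 0 members. Total reads are the denominator of this share, so it is not independent of the share of total reads. The means of C13 with TDP-43 and of DMSO with sham were also above both other means in some transfer RNA genes. In mt-Tl1 they were 50.0% with C13 and TDP-43, 37.0% with C13 and sham, 34.9% with DMSO and TDP-43 and 48.2% with DMSO and sham. mt-Td, mt-Tg and mt-Tw had the same order of means, and in all of these genes single libraries overlapped. The means of mt-Tf, mt-Tv, mt-Tm, mt-Tk and mt-Tr did not have that order. mt-Tv was 40.2% with C13 and TDP-43 and 45.8% with C13 and sham. The share of all genes with this order of means was not computed. The nascent share of whole libraries differed as well, at 2.91% ± 0.435 with C13 and TDP-43, 2.64% ± 0.683 with C13 and sham, 2.77% ± 0.61 with DMSO and TDP-43 and 4.42% ± 2.35 with DMSO and sham (SD, n = 3 each). Relative to its library, the log2 nascent share of the ribosomal RNA class averaged 0.44 ± 0.26 with C13 and TDP-43, 0.053 ± 0.33 with C13 and sham, -0.13 ± 0.24 with DMSO and TDP-43 and -0.010 ± 0.61 with DMSO and sham. On that scale TDP-43 and sham libraries overlapped with either drug, and the interaction was 0.50 (exact permutation p = 0.265, adjusted p = 0.557). With DMSO the overlap came from sham replicate 2 alone (-0.71), which is not 1 of the 2 libraries that stand apart. The other sham libraries stood at 0.26 and 0.42, and TDP-43 libraries at 0.0096 or below. With C13 it came from sham replicate 3 (0.43). Without each library in turn the interaction lay between 0.289 and 0.850 and was never called (exact permutation test, lowest adjusted p = 0.105). Without the 2 libraries that stand apart it was 0.76 (exact permutation test, adjusted p = 0.668). Set against the median nuclear gene in place of the library's share it reversed to -0.97 (exact permutation test, adjusted p = 0.752). Relative to the library's share, all libraries of C13 with TDP-43 lay above all of DMSO with TDP-43 (exact permutation p = 0.1, the smallest for 3 against 3). The libraries of the other pairs overlapped. The exact permutation p was 0.8 for C13 against DMSO with sham, 0.2 for TDP-43 against sham with C13 and 0.8 with DMSO.

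Gene by gene, edgeR's quasi-likelihood test called 0 of 16 members in total RNA in any of the 7 comparisons, among 11827 genes of which 0% were called. Levels of single genes are given in CPM after scaling by the trimmed mean of M-values (TMM). At an unadjusted p under 0.05 it held 3 members for C13 against DMSO with TDP-43 (5.98% of all genes), 5 for C13 against DMSO with sham (6.1%), 5 for TDP-43 against sham with C13 (8.84%) and 3 for TDP-43 against sham with DMSO (4.36%). It held 0 for C13 against DMSO on average (4.08%), 3 for TDP-43 against sham on average (4.73%) and 4 for the interaction (7.96%). Members whose 3 libraries all lay above the 3 they were set against numbered 2 for C13 against DMSO with TDP-43 (6.97% of all genes), 3 for C13 against DMSO with sham (4.41%), 1 for TDP-43 against sham with C13 (6.69%) and 3 for TDP-43 against sham with DMSO (5.49%). Those whose libraries all lay below numbered 2 (6.48%) for C13 against DMSO with TDP-43, 1 (5.72%) with sham, 3 (6.07%) for TDP-43 against sham with C13 and 1 (6.41%) with DMSO. DESeq2 called mt-Tw for C13 against DMSO with TDP-43 (0.254% of all genes called), for TDP-43 against sham with C13 (0.829%) and for TDP-43 against sham with DMSO (0.0676%). It called mt-Rnr1 for C13 against DMSO with sham (0.347%), and both of them and mt-Rnr2 for the interaction (0.913%).

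mt-Tw had the smallest p of the members for the interaction. The rule for naming genes does not cover it, and its values were known when it was picked. Total mt-Tw was 95.1, 129.0 and 73.6 CPM with C13 and TDP-43, and 33.2, 41.6 and 43.3 CPM with C13 and sham. With DMSO it was 42.4, 42.0 and 21.7 CPM with TDP-43, and 77.1, 102.1 and 76.9 CPM with sham. All libraries of C13 with TDP-43 and of DMSO with sham were above all others, a pattern found in 48 of 11827 genes (0.406%) and in no other member. TDP-43 against sham gave a log2 fold change of 1.33 (SE 0.29) with C13 and -1.27 (SE 0.29) with DMSO. The interaction was 2.60 (SE 0.41, edgeR adjusted p = 0.0741), and 2.44 without the 2 libraries that stand apart (edgeR adjusted p = 0.151). edgeR called it with a replicate block (2.58, adjusted p = 0.0416, 0.0169% of all genes called) and with counts divided by common factors (2.61, adjusted p = 0.047, 0.0171% of all genes called). Nascent mt-Tw was 1844 ± 363 CPM with C13 and TDP-43, 909 ± 611 with C13 and sham, 561 ± 58.2 with DMSO and TDP-43 and 1138 ± 403 with DMSO and sham (SD, n = 3 each), with an interaction of 2.04 (SE 0.69, edgeR adjusted p = 0.535).

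mt-Rnr2 had the opposite pattern in total RNA. It was 11060, 9350 and 8019 CPM with C13 and TDP-43, and 13184, 14113 and 21921 CPM with C13 and sham. With DMSO it was 11409, 15882 and 15170 CPM with TDP-43, and 9240, 10484 and 8111 CPM with sham. All libraries of C13 with TDP-43 and of DMSO with sham were below all others, as in 27 of 11827 genes (0.228%). Its interaction was -1.40 (SE 0.31, edgeR adjusted p = 0.187), and -1.06 without the 2 libraries that stand apart (edgeR adjusted p = 0.403). mt-Rnr1 was 4555, 5946 and 4441 CPM with C13 and TDP-43, and 4974, 10350 and 13584 CPM with C13 and sham. With DMSO it was 5695, 8208 and 10013 CPM with TDP-43, and 2639, 4944 and 4882 CPM with sham. With C13 the TDP-43 and sham libraries of mt-Rnr1 overlapped, and its interaction was -1.89 (SE 0.46, edgeR adjusted p = 0.244). Without the 2 libraries that stand apart it was -1.34 (edgeR adjusted p = 0.537).

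**Figure D5:**
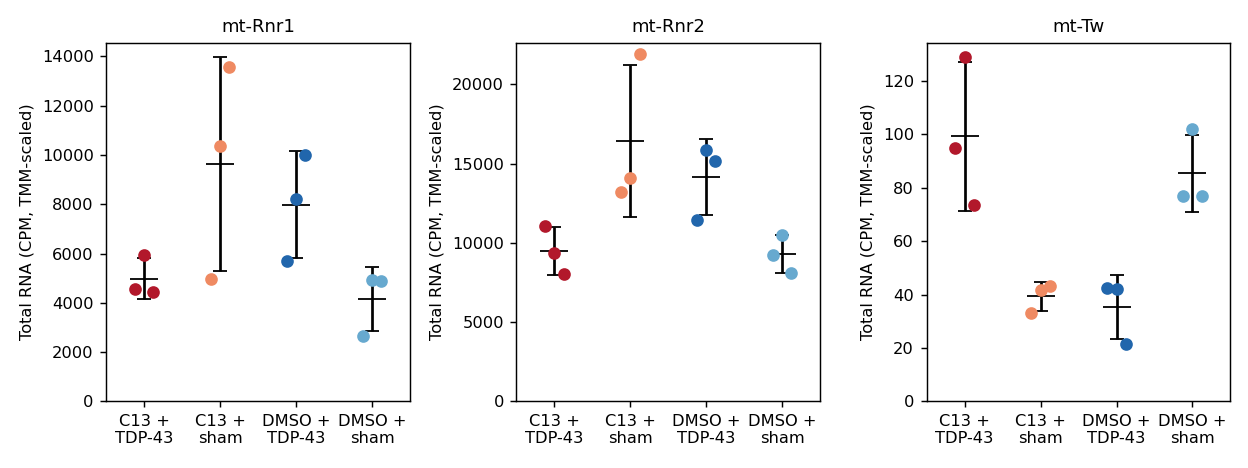
Total RNA of mt-Rnr1, mt-Rnr2 and mt-Tw in TMM-scaled CPM, with 1 point per library, the group mean as a line and the SD as bars (n = 3). mt-Tw is high in C13 with TDP-43 and in DMSO with sham, where mt-Rnr2 is low.

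The 4 transfer RNA genes with the most reads were not called for the interaction by edgeR or DESeq2. mt-Td was 674 ± 221 CPM with C13 and TDP-43, 945.5 ± 175 with C13 and sham, 583 ± 79 with DMSO and TDP-43 and 721 ± 216 with DMSO and sham (SD, n = 3 each). mt-Ti was 340 ± 109 CPM with C13 and TDP-43, 358 ± 151 with C13 and sham, 243 ± 29.3 with DMSO and TDP-43 and 343 ± 70.8 with DMSO and sham (SD, n = 3 each). Their interactions were -0.18 (SE 0.37, edgeR adjusted p = 0.952) and 0.42 (SE 0.41, edgeR adjusted p = 0.872). mt-Tg and mt-Tl1 had interactions of -0.77 (SE 0.37) and -0.11 (SE 0.35), with edgeR adjusted p = 0.635 and 0.969. The neighbours mt-Th and mt-Ts2, also picked with their values known, had interactions of 1.64 (SE 0.72) and 1.77 (SE 0.85), with edgeR adjusted p = 0.585 and 0.638. mt-Tl2, which lies next to mt-Ts2, had an interaction of 0.46 (SE 1.29, edgeR adjusted p = 0.964). The remaining transfer RNA genes had negative interactions, none of them called by edgeR. These were -3.68 (SE 2.2) for mt-Tf, -1.27 (SE 1.23) for mt-Tr, -1.22 (SE 0.59) for mt-Tv and -0.93 (SE 0.48) for mt-Tk. For mt-Tt and mt-Tm they were -0.45 (SE 0.61) and -0.29 (SE 0.54).

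In nascent RNA edgeR called 0 of 15 members in any of the 7 comparisons, among 7078 genes, and DESeq2 called 0. The background was 0% in 6 comparisons and 0.0141% (1 gene) for TDP-43 against sham on average. At an unadjusted p under 0.05 the edgeR test held 2 members for C13 against DMSO with TDP-43 (4.59% of all genes), 7 for C13 against DMSO with sham (6.89%), 4 for TDP-43 against sham with C13 (8.45%) and 0 for TDP-43 against sham with DMSO (3.19%). It held 4 for C13 against DMSO on average (5.96%), 1 for TDP-43 against sham on average (5.59%) and 4 for the interaction (7.59%). Members whose 3 libraries all lay above the 3 they were set against numbered 2 for C13 against DMSO with TDP-43 (6.02% of all genes), 1 for C13 against DMSO with sham (5.13%), 0 for TDP-43 against sham with C13 (7.87%) and 1 for TDP-43 against sham with DMSO (3.74%). Those whose libraries all lay below numbered 0 (4.34%) for C13 against DMSO with TDP-43, 0 (9.14%) with sham, 0 (5.23%) for TDP-43 against sham with C13 and 1 (6.56%) with DMSO. The pattern of mt-Tw and that of mt-Rnr2 in total RNA were each found in 0 members in nascent RNA (0.184% and 0.141% of genes). The 7 members for C13 against DMSO with sham were mt-Rnr1, mt-Rnr2, mt-Tv, mt-Tl1, mt-Tm, mt-Td and mt-Tg, all with positive log2 fold changes. Without the 2 libraries that stand apart 0 of these 7 had an unadjusted p under 0.05, while mt-Tw and mt-Ts2 did with negative log2 fold changes (7.28% of 7950 genes), and the edgeR test called 0 members. Among them mt-Td was 3494, 5694 and 15236 CPM with C13 and sham, and 3575, 2495 and 4355 CPM with DMSO and sham. Replicate 3 of C13 with sham, which has the lowest nascent share of all libraries, was the highest, and the other libraries of the 2 groups overlapped. Nascent mt-Rnr2 was 10779, 15212 and 54486 CPM with C13 and sham, against 9134, 6091 and 11610 CPM with DMSO and sham. The interactions of nascent mt-Rnr1 and mt-Rnr2 were -1.64 and -1.92, against -0.17 and -0.40 without the 2 libraries that stand apart (edgeR adjusted p = 0.630, 0.541, 0.978 and 0.889).

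Nuclear genes whose proteins transcribe, process or stabilise mitochondrial RNA were listed for comparison. Of 33 such genes 30 were tested in total RNA and 21 in nascent RNA, and edgeR called 0 of them in all 7 comparisons of each table. For the interaction in total RNA 2 of the 30 had an unadjusted p under 0.05 (7.96% of all genes did), 15 had positive log2 fold changes, and the list's median was 0.016, against 0.012 over all genes tested. In nascent RNA 3 of the 21 had an unadjusted p under 0.05 for the interaction (7.59% of all genes did), and 14 had positive log2 fold changes. The median was 1.24, against 0.091 over all genes tested. It was not computed without C13 with sham replicate 3 and DMSO with TDP-43 replicate 3. There the median nuclear gene with at least 100 total reads was 0.303% and 0.407% nascent, against 1.32% or more in the other libraries. Whether this moved the median of the list was not tested. Lrpprc, which with Slirp binds and stabilises mitochondrial messenger RNA, was 776 ± 241 CPM with C13 and TDP-43, 638 ± 201 with C13 and sham, 443 ± 110.5 with DMSO and TDP-43 and 649 ± 136 with DMSO and sham (SD, n = 3 each). Grsf1, a protein of mitochondrial RNA granules, averaged 124 to 139 CPM in the 4 groups, Slirp 52.4 to 64.7 and Hsd17b10, a subunit of mitochondrial RNase P, 46.1 to 64.6.

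Across the 12 libraries the shares of total reads of the 2 classes had a Pearson r of 0.649 (permutation p = 0.0305, adjusted p = 0.061 over 2 relations) and a Spearman rho of 0.35 (permutation p = 0.269). Without DMSO with TDP-43 replicate 2 and C13 with sham replicate 3, the libraries farthest from the median of the ribosomal RNA share, r was 0.128 (permutation p = 0.723). Leaving out extremes of 1 share also narrows its range, which can lower r. The transfer RNA share was 0.161% in DMSO with TDP-43 replicate 2 and 0.274% in C13 with sham replicate 3, against a mean of 0.166%. Neither library was left out alone. Without the 2 libraries that stand apart r was 0.351 (permutation p = 0.321). As deviations from the group means the shares had an r of 0.873 (permutation p = 1.5e-04, adjusted p = 3e-04), and a rho of 0.846 (permutation p = 7.4e-04). These p-values can be too small. The deviations were shuffled across all groups, although centring fixes their sum within each group and the groups differ in spread. The deviations were not compared without C13 with sham replicate 3. The ribosomal RNA share of total reads and the library's nascent share had an r of -0.37 (permutation p = 0.159) and a rho of -0.322 (permutation p = 0.307), and without the farthest 2 libraries an r of -0.263 (permutation p = 0.43). The ratio of mt-Rnr1 to mt-Rnr2 reads within a library was 0.286 to 0.733 in total reads and 0.379 to 0.588 in nascent reads.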

How the data were processed

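For 12 libraries made with a QuantSeq 3′ kit, the authors deposited a table of total counts and a table of nascent counts, both unnormalised, by Ensembl gene. The submitters' processing notes name GRCm38. How reads were aligned and counted, on which strand, and when a read was taken as nascent is not given in the sources used here. An annotation (GENCODE M21) matched 30922 of 30994 identifiers. The tables hold 14 of 14 plus-strand mitochondrial transfer RNA genes and 3088 of 3088 plus-strand nuclear small RNA genes, against 1 of 2996 nuclear ones on the minus strand. All counts of 1917 of 9932 genes with a mean over 50 total reads shared a factor of 2 or more, as did 0 members. No 2 replicates were alike (chi-square per degree of freedom 70.5 or more).

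Members, lists and tests were chosen with earlier results of these data known. Tests of the protein-coding genes and of mt-Nd6 had been planned, and the transfer RNA class took their place after the row names were seen. The rule named both ribosomal RNA genes, the 4 transfer RNA genes with the highest mean total count and, with no factor gene called, the 4 factor genes with the highest CPM. Genes were kept by filterByExpr, scaled by TMM within each table and tested over all genes with edgeR 4.0.16 (R 4.3.3) by its quasi-likelihood test, all 12 libraries in 1 fit of 4 group means, with Benjamini-Hochberg adjustment and a threshold of 0.05. Nascent and other reads of each library were compared in 1 fit with the library as a term. Shares were tested by exact permutation within arms (400 arrangements) or by sign flips (4096), with SciPy 1.17.1. Correlations used 100000 permutations. Nuclear matches were searched with BLAST+ 2.17.0. Alternatives were DESeq2 1.42.0, its size factors, no filter, a replicate block, other denominators and leaving out libraries. Before use, the edgeR tests were run on simulated counts with 200 changed genes, and the permutation tests within arms on simulated random values.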

Additional observations from a re-analysis of the deposited data

Results flagged for a closer look

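The share of total reads held by the ribosomal RNA genes was lower with TDP-43 than with sham in cells given C13. It was higher in cells given DMSO. The difference between the aggregate effects was -2.09 percentage points (exact permutation test, adjusted p = 0.035). That test takes as its null that aggregates had no effect with either drug, not that the effects were equal. Its adjusted p was 0.07 without the 2 libraries that stand apart and up to 0.14 when each library was left out in turn. In total mt-Rnr2 every TDP-43 library was likewise below every sham library with C13 and above every one with DMSO, with an interaction of -1.40 on the log2 scale that edgeR did not call (adjusted p = 0.187). In total mt-Tw every TDP-43 library was above every sham library with C13 and below every one with DMSO, with an interaction of 2.60 that edgeR did not call (adjusted p = 0.0741) but called with a replicate block (adjusted p = 0.0416) and with counts divided by common factors (adjusted p = 0.047). Their causes were not tested.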

How the results depend on the processing

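No result that reversed was past its threshold as reported. Values are in percentage points for shares and on the log2 scale for relative nascent shares, and the cause of each change was not tested. The difference of aggregate effects in the ribosomal RNA share of total reads was -2.088 with a replicate block (adjusted p = 0.219) and -1.433 without the 2 libraries that stand apart (adjusted p = 0.07), both the smallest that the fewer arrangements allow, and between -2.498 and -1.551 without each library. Deviations of same-numbered libraries correlated between -0.0322 and 0.126. Their median was 0.022 in total and 0.0109 in nascent RNA, against -0.00938 and -0.0105 for differently numbered libraries. The labels do not say whether a replicate number stands for a shared day or passage, and these values do not settle it. The replicate block called 1 member, mt-Tw, for the interaction in total RNA (2.576, edgeR adjusted p = 0.0416), and division of counts by common factors also called 1, mt-Tw. Over all genes each of these settings called 2. DESeq2 called 3 members for that interaction, and 1 in each pairwise comparison of total RNA. Without a filter on low counts edgeR called 3 for it, and 1 for C13 against DMSO with TDP-43, 2 for C13 against DMSO with sham, 2 for TDP-43 against sham with C13 and 1 for TDP-43 against sham with DMSO. In nascent RNA it called 2 for C13 against DMSO with sham and 1 for the interaction. Over all genes, where edgeR called 0 in each comparison of total RNA and 0 or 1 in nascent RNA, DESeq2 called 8 to 108 and 7 to 72, and edgeR without a filter 10 to 124 and 6 to 38.

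TDP-43 against sham on average lay between -0.4747 and 0.3737 without each library for the ribosomal RNA share of nascent reads, between -0.3366 and 0.1371 for that of total reads and between -0.559 and 0.1303 for the transfer RNA share of nascent reads. Without the 2 libraries that stand apart these were 0.2622, 0.07823 and 0.07094. C13 against DMSO on average lay between -0.01051 and 0.4632 for the ribosomal RNA share of total reads. The interaction of the transfer RNA share lay between -0.8017 and 0.5769 in nascent reads and between -0.05003 and 0.01054 in total reads, and was 0.6957 and 0.007132 without the 2 libraries. For relative nascent shares, TDP-43 against sham lay between -0.03938 and 0.2409 (ribosomal RNA) and between -0.006689 and 0.4015 (transfer RNA), and the transfer RNA interaction between -0.2683 and 0.5481. Against the median nuclear gene the interactions were -0.9714 (ribosomal) and -1.385 (transfer RNA), against 0.502 and 0.0885 as tested over the library's share, and the ribosomal RNA excess over 12 libraries was 0.9896. The correlation of class shares was 0.873 as deviations from group means. Leaving nuclear copies of the mitochondrial genome out of the denominator, and the planned tests of protein-coding genes, were not run, as no such rows were analysed here. With 3 libraries a group and 3 to 47 reads of mt-Tf per library, small differences were not detectable.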
